A study of Mus musculus with 3 samples.

Results

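The cytochrome P450 genes of mouse intestinal epithelium were followed along the gut in RNA sequencing of 3 regions. They were taken as the rows whose gene symbol has the form of a P450 name, such as Cyp2c55, together with Cyp51, and names marked -ps for pseudogenes were left out. This gave 101 of the 24346 genes listed, in 40 subfamilies. The rule used names alone and no measured value, but it was set with earlier results of these data known. Of the 101 rows, 99 are annotated as protein coding. Cyp2d13 is listed as a transcribed pseudogene in RefSeq although its name lacks the mark, and Cyp4x1os is an antisense transcript of the Cyp4x1 locus.

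Epithelial cells had been released with EDTA from the large intestine, the upper small intestine and the lower small intestine, and no sorting step is described in the labels. Each region was represented by 1 library, so no difference below has a replicate check, and the values describe these libraries. The source names of all 3 libraries begin with SPFm, a term the labels do not explain. The labels give no genotype, age, sex or number of animals. A strain entry is given for the upper small intestinal library alone and describes a colorectal cancer model, MC38, so a difference that involves that library cannot be told apart from a difference of strain if the entry is true.

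P450 enzymes are haem proteins of the endoplasmic reticulum or the mitochondria that insert an oxygen atom into lipophilic substrates. Families Cyp1 to Cyp3 oxidise mainly drugs, dietary compounds and steroids, family Cyp4 hydroxylates fatty acids and eicosanoids, and the remaining families make or break sterols, bile acids, steroid hormones, vitamin D and retinoic acid. In the gut epithelium the enzymes meet absorbed xenobiotics before the liver does, and in small intestine the Cyp3a enzymes are the best known of them. Their genes are commonly found as tandem arrays of close relatives, which in these libraries differed in where along the gut they were expressed.

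The promoter windows below belong to genes on which the regional picture turns. Cyp2c55, Cyp2c65 and Cyp2c66 stand next to each other on the plus strand of chromosome 19, and Cyp3a11 and Cyp3a25 on the minus strand of chromosome 5. Each window holds the 250 bases before the start of the gene in RefSeq (GRCm38.p6, the assembly of mm10), at chr19:39006769-39007018, chr19:39060756-39061005, chr19:39113648-39113897, chr5:145879855-145880104 and chr5:146009619-146009868 in that order. Capitals mark matches, on either strand, to motifs bound by factors known to act on P450 genes. The motifs were the HNF4 core AAGTCCA, the nuclear receptor hexamers AGGTCA and AGTTCA, the GATA motifs AGATAA and TGATAA, the HNF1 motif GTTAAT and the Ahr core GCGTG, and no printed matches overlap.
Cyp2c55: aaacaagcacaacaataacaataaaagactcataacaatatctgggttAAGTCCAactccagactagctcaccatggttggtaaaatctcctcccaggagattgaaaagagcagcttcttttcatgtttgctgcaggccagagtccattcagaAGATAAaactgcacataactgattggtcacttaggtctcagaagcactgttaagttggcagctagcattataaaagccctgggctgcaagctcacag
Cyp2c65: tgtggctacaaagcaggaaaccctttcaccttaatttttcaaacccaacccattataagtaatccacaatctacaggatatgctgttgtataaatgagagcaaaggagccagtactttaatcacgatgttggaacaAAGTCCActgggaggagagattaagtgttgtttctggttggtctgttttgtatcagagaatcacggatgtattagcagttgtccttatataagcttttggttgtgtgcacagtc
Cyp2c66: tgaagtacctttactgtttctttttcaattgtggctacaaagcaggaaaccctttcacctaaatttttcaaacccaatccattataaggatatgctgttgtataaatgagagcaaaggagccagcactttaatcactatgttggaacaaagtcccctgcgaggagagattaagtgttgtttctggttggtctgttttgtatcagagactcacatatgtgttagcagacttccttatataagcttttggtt
Cyp3a11: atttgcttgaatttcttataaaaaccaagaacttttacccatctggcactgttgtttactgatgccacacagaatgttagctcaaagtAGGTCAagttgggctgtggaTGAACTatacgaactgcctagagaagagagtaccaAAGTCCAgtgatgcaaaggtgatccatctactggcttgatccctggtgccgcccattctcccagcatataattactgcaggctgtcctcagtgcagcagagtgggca
Cyp3a25: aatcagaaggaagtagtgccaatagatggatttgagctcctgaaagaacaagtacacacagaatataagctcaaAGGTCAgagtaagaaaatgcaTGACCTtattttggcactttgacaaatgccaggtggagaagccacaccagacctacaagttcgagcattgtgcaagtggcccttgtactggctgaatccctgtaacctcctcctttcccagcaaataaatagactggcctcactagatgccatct

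Over aligned positions, 208 of 221 bases (94.1%) were identical between the Cyp2c65 and Cyp2c66 windows. The HNF4 core AAGTCCA was found in the window of Cyp2c65 and not in that of Cyp2c66. It was also found in the windows of Cyp2c55 and Cyp3a11. The Cyp3a11 match lies 107 to 101 bases before the RefSeq start, but GENCODE starts this gene further upstream, so that part of the window, this match included, lies inside the gene at the GENCODE position given below. Of the 32 members at 1 FPKM or more that have a window in the RefSeq table, 5 (15.6%) held this motif, Cyp2c68 and Cyp2c69 included, against 3.36% of 32851 windows of all genes. Since the windows of close relatives share sequence, these 5 are not independent. The hexamer AGGTCA was in 15.6% of the P450 windows and 14.0% of all, AGTTCA in 15.6% and 11.8%, AGATAA in 21.9% and 9.99%, TGATAA in 15.6% and 7.94%, GTTAAT in 12.5% and 6.43%, and GCGTG in 31.2% and 28.2%. In these shares each P450 member counted with 1 window. The windows of all genes were not limited to 1 per gene or to genes at 1 FPKM or more. A match describes these letters and is not evidence of binding.

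Levels are given in FPKM, a unit that corrects for transcript length and library size, so that levels can be compared between genes. Sets of values run in the order large, upper, lower. For a transcript of 2 kb, 1 FPKM corresponded to some 16.75 reads in the large intestinal library, 14.6 in the upper and 21.8 in the lower small intestinal library, judged from the steps between low values. Of all genes, 11589, 11491 and 11595 reached 1 FPKM. The labelled regions carried their marker genes, with Car1 at 6414, 0.257 and 0.172 FPKM, Fabp1 at 1.15, 7255 and 330 FPKM and Fabp6 at 38.3, 0.416 and 7245 FPKM, and all 8 epithelial markers were above 80 FPKM in all 3 libraries. Markers of other cells were present to differing extents. The 4 T cell markers summed to 5.18, 75.2 and 65.1 FPKM and the 4 B and plasma cell markers to 0.097, 28.6 and 26.7 FPKM. The 6 fibroblast and muscle markers were each below 1 FPKM, and the 4 endothelial markers summed to 1.72, 1.05 and 1.52 FPKM. Of the 6 pancreatic acinar genes, Cpa1, Prss2, Pnlip and Ctrb1 were at 4.85 to 15.5 FPKM in the upper library and listed at 0 in the others, Amy2a5 was listed at 0 throughout and Cela1 was at 227, 12.9 and 5.71 FPKM. The 6 hepatocyte genes summed to 30.9, 325 and 257 FPKM, mostly from Ttr in the large intestine and from Cps1, also an enterocyte gene, in the small intestine, while the defining genes Alb and Ahsg did not exceed 0.654 FPKM. The part of other cells in the P450 values was not tested.

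The P450 repertoire differed in size and make-up between the regions. Summed over the 101 members, P450 transcripts reached 1694 FPKM in the large intestine, 2695 in the upper small intestine and 933 in the lower small intestine, or 0.325%, 0.389% and 0.144% of all FPKM. In bulk samples, fewer cells of a type and less RNA per cell cannot be told apart. In the large intestine 50.3% of this sum came from Cyp2c55 alone, and without it the sum was 842 FPKM there, against 2673 in the upper and 931 in the lower small intestine. In the upper small intestine the Cyp3a subfamily held 32.1% of the sum, against 3.78% in the large and 15.2% in the lower. In the lower small intestine the Cyp4f subfamily held 49.3%, and Cyp4f14 alone 36.8%.

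**Figure D1:**
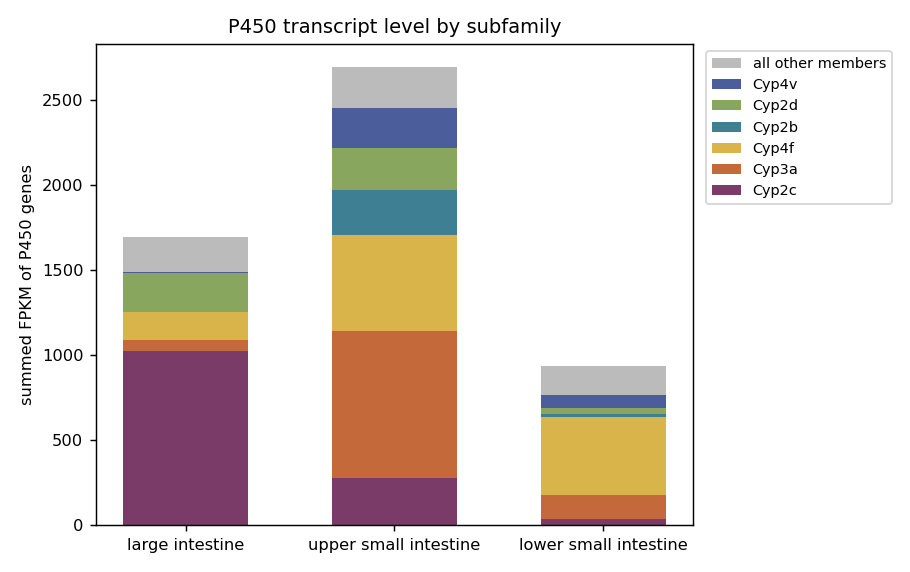
Summed FPKM of the P450 genes in each library (1 per region), stacked by subfamily. Cyp2c genes fill most of the large intestinal column (1025 FPKM), Cyp3a genes are the largest block of the upper small intestine (866 FPKM) and Cyp4f genes the largest of the lower (460.2 FPKM).

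Of the 101 members, 40 reached 1 FPKM in at least 1 library and 28 reached 10 FPKM. Another 33 were above 0 but at most at 0.754 FPKM, and 28 were listed at 0 in all 3 libraries. An exact 0 in such files can be a failed estimate. At 1 FPKM or more were 31 members in the large, 31 in the upper and 25 in the lower small intestine, and 20 in all 3. The highest level of the 40 lay in the large intestine for 16, in the upper small intestine for 20 and in the lower for 4, against 41.3%, 29.4% and 29.2% of the 12579 genes of any kind that reached 1 FPKM.

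**Figure D2:**
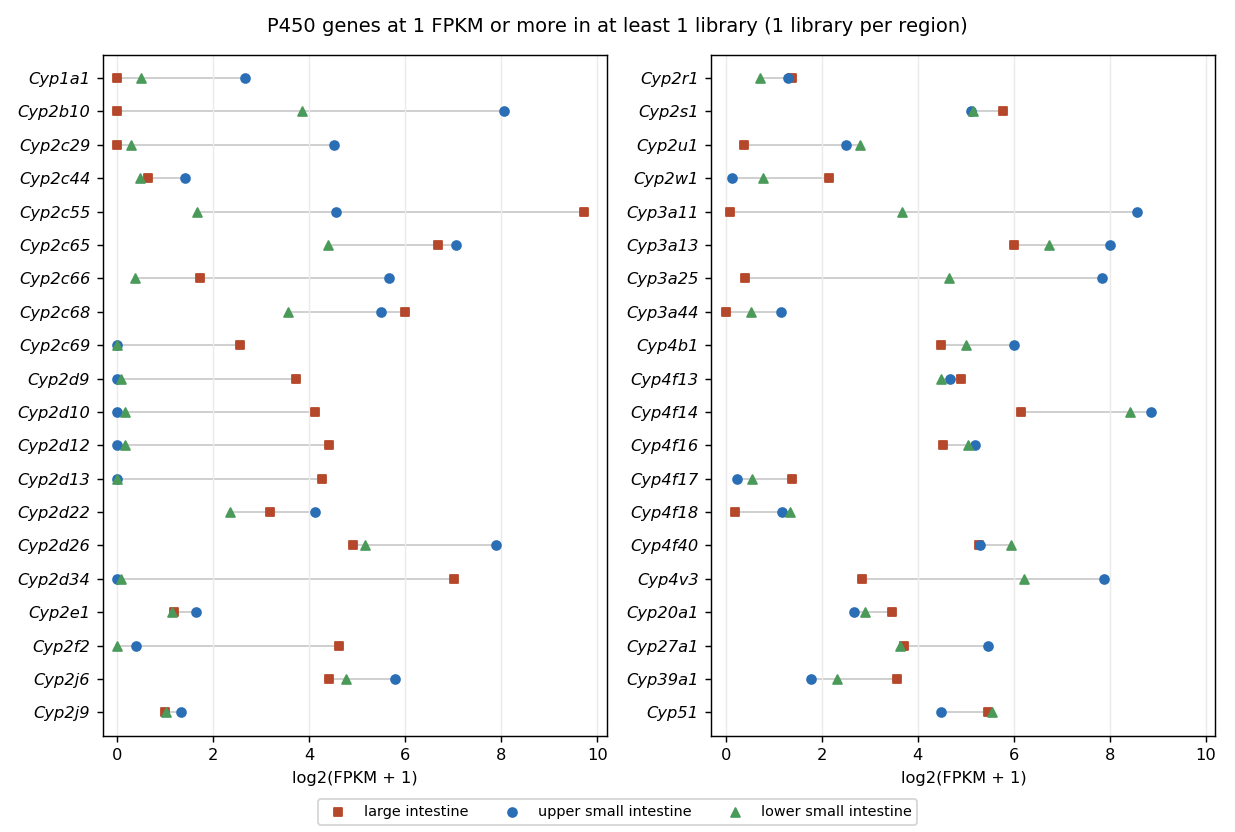
Level of each of the 40 P450 genes at 1 FPKM or more in at least 1 library, as log2(FPKM + 1), with 1 symbol per library. Cyp2c55, Cyp2d9, Cyp2d10, Cyp2d12, Cyp2d13 and Cyp2d34 each have their own highest level in the large intestine. Cyp2b10, Cyp3a11, Cyp3a25 and Cyp4v3 each have theirs in the upper small intestine.

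The regions were then compared in pairs. Genes that reached 1 FPKM in either library of a pair were counted as measured. With no replicates to test, a difference was called when log2(FPKM + 1) differed by at least 1. This scale understates differences of low genes. A gene below 1 FPKM in 1 library of a pair was measured through the other library alone. It could then be called higher only in that other library. The same held for all genes. Of 40 P450 genes measured in the large or upper small intestine, 11 had a higher level in the large intestine and 15 a lower level, with a median difference of -0.41. Over all 12350 genes measured, 11.2% were higher and 11.7% lower, and the median was 0.00. Set against the lower small intestine, 13 of 36 had a higher level in the large intestine and 7 a lower level (median 0.48), where 9.75% of 12376 genes were higher and 10.5% lower. Of 31 measured in the upper or lower small intestine, 15 had a higher level in the upper and 1 a lower level (median 0.999), against 3.92% and 2.92% of 11941 genes. The 3 comparisons share libraries and are not independent.

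Several called members are neighbouring relatives with similar sequences, so the counts also depend on how relatives are treated. In an alternative added with the values in view, the 5 Cyp2d rows highest in the large intestine were summed into 1 entry. So were 3 groups of close Cyp2c and Cyp3a relatives, into 1 entry each. Set against the upper small intestine, 6 of 33 members were then higher in the large intestine and 13 lower. Of all genes, not merged, 11.2% were higher and 11.7% lower. Set against the lower small intestine, 7 members were higher, where 9.75% of all genes were. The count of 15 higher in the upper than in the lower small intestine became 14, where 3.92% of all genes were higher.

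**Figure D3:**
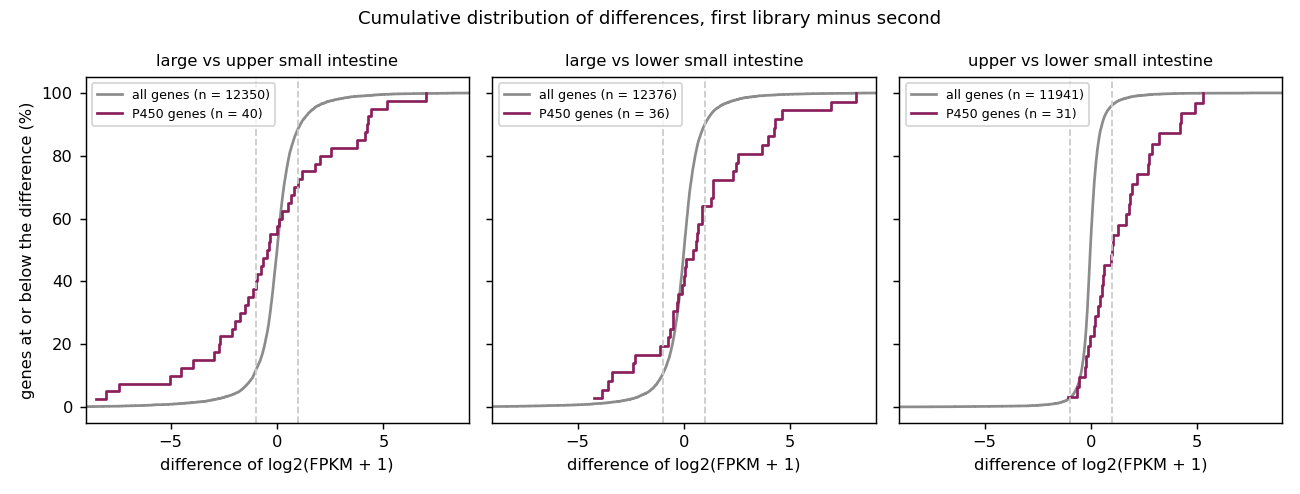
Cumulative share of genes (percent) by difference of log2(FPKM + 1), first library minus second, for P450 genes and for all genes measured in each pair. Dashed lines mark the differences of -1 and 1. The P450 curve is wider than that of all genes in both comparisons with the large intestine, and it lies to the right between upper and lower small intestine, with 15 of 31 genes at 1 or more.

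The Cyp2c subfamily, whose enzymes oxidise drugs and arachidonic acid, held the most abundant P450 gene of the large intestine. Cyp2c55 (chromosome 19, 39007019 to 39042693, plus strand, in GRCm38 as for all gene positions here), which encodes an arachidonic acid hydroxylase, reached 852 FPKM in the large intestine, 22.5 in the upper and 2.17 in the lower small intestine. It ranked 104 among all genes of the large intestinal library. The large intestine stood 37.9 (33.9 to 42.3) times above the upper and 392 (296 to 536) times above the lower, and the upper 10.4 (7.64 to 14.4) times above the lower. The ranges given with ratios are 95% Clopper-Pearson intervals, computed from the read numbers that the FPKM values imply, and they cover counting error alone.

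Its neighbour Cyp2c65 had another order of regions, at 102 FPKM in the large, 132 in the upper and 20.1 in the lower small intestine. The large intestine was at 5.07 (4.56 to 5.67) times the lower, whereas against the upper the ratio was 0.771 (0.721 to 0.825). Cyp2c66, the next gene on the chromosome, was at 2.30, 49.6 and 0.296 FPKM. Its coding sequence is 96.3% identical to that of Cyp2c65, yet Cyp2c65 exceeded it 44.4 times in the large intestine, 2.67 times in the upper and 68.0 times in the lower small intestine. Of the 50-base words of the Cyp2c65 transcript, 20.2% also occur in Cyp2c66, so a part of the reads of either gene could have been given to the other. Cyp2c29, the fourth gene of this stretch, reached 1 FPKM in the upper library alone, at 0, 21.8 and 0.213 FPKM.

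Further along the array, Cyp2c68 was at 62.9 FPKM in the large, 44.4 in the upper and 10.8 in the lower small intestine. Between large and lower the ratio came to 5.84 (5.02 to 6.85). Cyp2c69, with a coding sequence 96.5% identical to that of Cyp2c68, had 4.89 FPKM in the large intestine and values of 0 in the upper and lower small intestine. Outside the array, Cyp2c44, an epoxygenase of arachidonic acid that RefSeq lists as Cyp2c23, lay between 0.383 and 1.64 FPKM. The other 8 Cyp2c rows stayed below 1 FPKM, Cyp2c67 and Cyp2c38 coming closest at 0.754 and 0.566 FPKM in the upper small intestine. All 5 Cyp2c genes measured between large and lower small intestine were thus called higher in the large intestine, where 9.75% of all genes were. Of these, Cyp2c66 and Cyp2c69 were measured through the large intestine alone and could not have been called lower there. With a pseudocount of 5 FPKM the differences of Cyp2c66 (0.46) and Cyp2c69 (0.98) were no longer called. Of the 50-base words of Cyp2c68 and Cyp2c69, 43.3% and 54.8% also occur in other P450 transcripts, so the division of reads is uncertain here too. Between upper and lower, 5 of 6 were higher in the upper, against 3.92% of all genes. Cyp2c29, Cyp2c44 and Cyp2c66 were measured in this pair through the upper library alone, so only a higher call was open to them.

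The Cyp2d array on chromosome 15 was split in its middle. Cyp2d34 (82615965 to 82620946, minus strand) reached 128 FPKM in the large intestine, with 0 in the upper and 0.059 in the lower small intestine. Rows with the same pattern lie beside it, all listed at 0 in the upper and at 0.119 FPKM or less in the lower library. Cyp2d12 was at 20.3 FPKM in the large intestine, Cyp2d13 at 18.3, Cyp2d10 at 16.4 and Cyp2d9 at 12.3. These 5 rows are consecutive among the 9 Cyp2d rows in chromosome order and together came to 195 FPKM in the large intestine, 0 in the upper and 0.353 in the lower small intestine.

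Coding sequences of Cyp2d9, Cyp2d10, Cyp2d12 and Cyp2d34 are 88.8% to 92.5% identical in pairs, and 27.8%, 37.1%, 15.8% and 13.2% of their 50-base words occur in at least 1 other P450 transcript, so the division of reads among them is uncertain. The genes at either end of the array behaved otherwise. Cyp2d26 (82790101 to 82794294, minus strand) was at 28.9 FPKM in the large, 235 in the upper and 34.8 in the lower small intestine, with an upper to lower ratio of 6.75 (6.20 to 7.37). Cyp2d22, at the opposite end, was at 8.09, 16.5 and 4.11 FPKM. Enzymes of this subfamily are known for the oxidation of basic drugs.

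**Figure D4:**
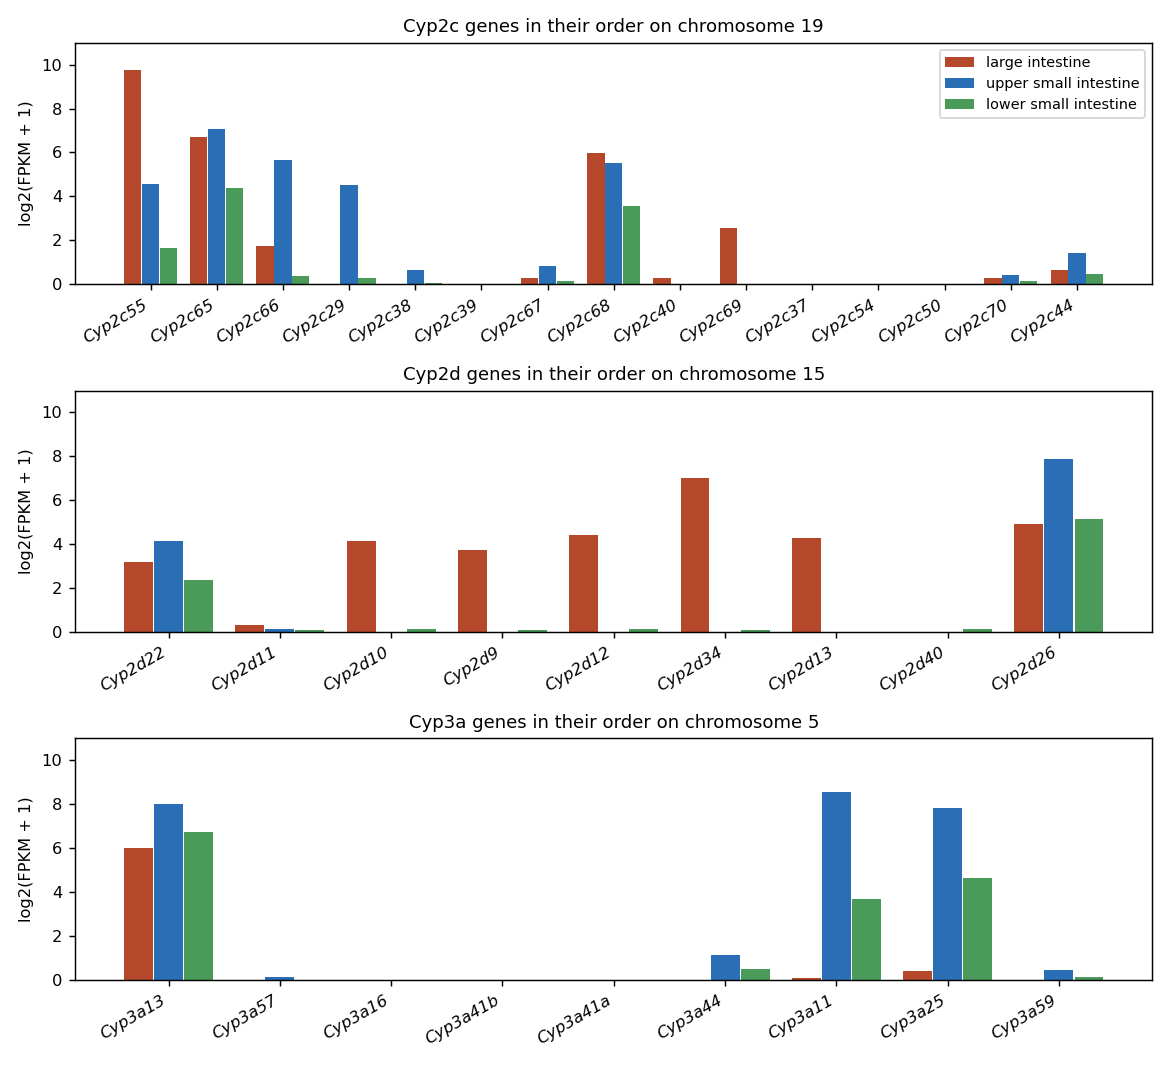
Levels, as log2(FPKM + 1), of all Cyp2c, Cyp2d and Cyp3a genes in their order along chromosomes 19, 15 and 5, with 1 bar per library. Bars from Cyp2d10 to Cyp2d13 stand almost solely in the large intestine, those of Cyp3a11 and Cyp3a25 in the small intestine, and Cyp2c55 is the tallest bar of the large intestine.

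Cyp3a enzymes are the main drug and steroid oxidising P450 enzymes of the intestine, and Cyp3a11 is the mouse gene most often studied as the counterpart of human CYP3A4. Cyp3a11 (chromosome 5, 145854426 to 145879964, minus strand) had 0.059 FPKM in the large intestine, 379.5 in the upper and 11.8 in the lower small intestine. The upper library was 32.3 (28.7 to 36.4) times above the lower, and the large intestinal value stood for about 1 read. Cyp3a25 (145977194 to 146009618, minus strand), the next gene, was at 0.320, 228 and 23.99 FPKM, with an upper to lower ratio of 9.52 (8.68 to 10.5). Both were thus expressed in small intestine and close to absent from the large intestinal library.

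Cyp3a13, which lies apart from the other Cyp3a genes on the same chromosome, was present in all regions at 63.6, 257 and 106 FPKM. Its upper to lower ratio was 2.42 (2.32 to 2.53) and its large to upper ratio 0.248 (0.234 to 0.262). Of the Cyp3a sum of 64.0 FPKM in the large intestine, nearly all came from Cyp3a13. Cyp3a44, whose coding sequence is 94.9% identical to that of Cyp3a11, was at 0, 1.22 and 0.431 FPKM, and the remaining 5 Cyp3a rows stayed at or below 0.351 FPKM.

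Among other xenobiotic enzymes, Cyp2b10 (chromosome 7, 25897620 to 25926624, plus strand) differed widely between regions. This phenobarbital-inducible gene, a classical target of the receptor CAR, was listed at 0 in the large intestine and was at 264 FPKM in the upper and 13.3 in the lower small intestine, an upper to lower ratio of 19.8 (17.5 to 22.6). The other 4 Cyp2b rows and all 4 Cyp2a rows were below 1 FPKM. Cyp1a1, induced through the aryl hydrocarbon receptor, was at 0, 5.36 and 0.418 FPKM, while Cyp1a2 and Cyp1b1 reached at most 0.179 FPKM. Cyp2s1, an extrahepatic enzyme, was at 53.9, 33.6 and 34.7 FPKM. Its large to upper ratio of 1.60 (1.46 to 1.76) was not called, but with libraries scaled to equal FPKM sums the log2 difference was 1.07 and passed the rule.

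Some members of family Cyp2 were higher in the large intestine. Cyp2f2, known from mouse lung for the activation of naphthalene, was at 23.7 FPKM in the large intestine, 0.311 in the upper and 0 in the lower small intestine. Cyp2w1, whose human counterpart is known from fetal colon and colorectal tumours, was at 3.43, 0.096 and 0.709 FPKM. Cyp2u1, a fatty acid hydroxylase, had the opposite profile at 0.308, 4.67 and 5.94 FPKM. With a pseudocount of 5 FPKM, Cyp2w1 in the large intestine was no longer called against the upper (0.73) or lower (0.56) small intestine. Cyp2u1 then lost its call against the upper (-0.87) and kept that against the lower (-1.04). The arachidonic acid epoxygenase Cyp2j6 was at 20.4, 54.2 and 26.1 FPKM, and its upper to lower ratio of 2.08 (1.92 to 2.26) lay close to the rule of size. Cyp2j9 and Cyp2e1, which oxidises ethanol, stayed above 1 and at or below 2.14 FPKM in all 3 libraries and were not called in any comparison. The other 5 Cyp2j rows and the rows of Cyp2g1, Cyp2ab1 and Cyp2t4 reached at most 0.192 FPKM, and Cyp2d11 and Cyp2d40 at most 0.237 FPKM.

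Of the fatty acid hydroxylases, Cyp4f14 (chromosome 17, 32905070 to 32917342, minus strand), which inactivates leukotriene B4, was the most abundant P450 gene of both small intestinal libraries. It was at 70.0 FPKM in the large, 463 in the upper and 344 in the lower small intestine, ranking 225 among all genes of the upper and 270 of the lower library. The large intestine stood at 0.151 (0.142 to 0.161) times the upper and 0.204 (0.192 to 0.217) times the lower small intestine, and the upper at 1.35 (1.30 to 1.39) times the lower. Cyp4v3, the mouse counterpart of a gene mutated in a human corneal and retinal dystrophy, was at 6.13, 234 and 73.0 FPKM. Both were thus higher in small intestine, and Cyp4v3 was also called higher in the upper than in the lower, with a ratio of 3.20 (3.07 to 3.34).

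Cyp4f13, Cyp4f16 and Cyp4f40, also on chromosome 17, were flatter. Cyp4f13 was at 28.8, 24.5 and 21.5 FPKM, Cyp4f16 at 22.0, 35.4 and 32.0 FPKM and Cyp4f40 at 37.96, 38.6 and 60.7 FPKM, and none of them was called in any comparison. Cyp4f17, of the same chromosome, was at 1.62, 0.169 and 0.453 FPKM. It was called higher in the large than in the upper small intestine (1.16), a call it lost with a pseudocount of 5 FPKM (0.36). Cyp4f18, which acts on leukotriene B4 in mouse neutrophils and lies apart on chromosome 8, was at 0.146, 1.26 and 1.52 FPKM. The 5 listed myeloid markers summed to 2.88, 12.1 and 23.7 FPKM, also lowest in the large intestine, and their part in the Cyp4f18 value was not tested. Cyp4b1, which oxidises fatty acids and some protoxins, was at 21.4, 63.2 and 31.1 FPKM. Cyp4f15, Cyp4f37 and Cyp4f39 stayed at or below 0.521 FPKM. The 8 Cyp4a rows, known targets of PPARα in liver, reached at most 0.601 FPKM.

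Of 7 sterol and bile acid enzymes, Cyp51, Cyp27a1 and Cyp39a1 were measured. Cyp51, the lanosterol demethylase of cholesterol synthesis, was at 43.4 FPKM in the large, 21.2 in the upper and 46.02 in the lower small intestine, with an upper to lower ratio of 0.461 (0.420 to 0.505), and was the only member called lower in the upper than in the lower library, a call it lost with a pseudocount of 5 FPKM (-0.96). Cyp27a1, the mitochondrial sterol hydroxylase of the acidic bile acid pathway, was at 12.2, 43.2 and 11.3 FPKM, so that the upper library stood 3.82 (3.28 to 4.46) times above the lower. Cyp39a1, an oxysterol hydroxylase, was highest in the large intestine at 10.8, 2.43 and 3.97 FPKM. Its difference between large and lower was called (1.25), but not with a pseudocount of 5 FPKM (0.82). Cyp7a1, the rate-limiting enzyme of bile acid synthesis in liver, was listed at 0 in all 3 libraries, and Cyp7b1, Cyp8b1 and Cyp46a1 did not exceed 0.063 FPKM.

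Enzymes of hormone and vitamin metabolism were at the limit of these data. The 6 steroid hormone genes reached at most 0.515 FPKM, a value of Cyp17a1 in the lower small intestine. Cyp24a1 and Cyp27b1, which break down and activate vitamin D, reached at most 0.148 FPKM, although the vitamin D receptor gene Vdr was at 172, 123 and 105 FPKM. Cyp2r1, which performs the first step of vitamin D activation, was at 1.61, 1.44 and 0.642 FPKM. The 3 retinoic acid hydroxylases of family Cyp26 reached at most 0.094 FPKM. Cyp20a1, an orphan enzyme of unknown substrate, was at 9.95, 5.34 and 6.44 FPKM.

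Receptors and other transcription factors known to act on P450 genes were followed as a list of 31, of which 27 were measured. In the large intestine 6 of them exceeded the upper small intestine by the rule of size and 4 fell short of it, or 22.2% and 14.8%, against 11.2% and 11.7% of all genes. Against the lower small intestine 4 were higher and 1 lower, where 9.75% and 10.5% of all genes were. Between upper and lower small intestine 2 were higher and 2 lower in the upper, against 3.92% and 2.92% of all genes. These are few genes, and several of the shares lie near those of all genes. The medians were 0.09, -0.01 and 0.13. Nr1i3, which encodes CAR, was at 3.62 FPKM in the large, 58.2 in the upper and 7.95 in the lower small intestine, and was called higher in the upper library than in either other. Nr1i2, which encodes the xenobiotic receptor PXR, was at 40.0, 48.9 and 35.4 FPKM, the aryl hydrocarbon receptor gene Ahr at 3.63, 5.51 and 4.07 FPKM and Hnf4a at 180.03, 192 and 231 FPKM, none of them called. Hnf4g, a second HNF4 gene, was at 16.9, 152 and 78.1 FPKM, whereas Pparg, at 54.4, 12.2 and 3.21 FPKM, and Foxa1, at 32.7, 5.39 and 15.5 FPKM, were highest in the large intestine.

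Of 11 measured redox partners, which pass electrons to P450 enzymes or bind them, none was higher in the large intestine than in the upper small intestine, and 5 had lower levels, where 11.2% and 11.7% of all genes were called. None was called between large and lower, where 9.75% of all genes were higher and 10.5% lower. Between upper and lower, 4 were higher and none lower in the upper, against 3.92% and 2.92% of all genes. Por, the reductase that serves all microsomal P450 enzymes, was at 61.2 FPKM in the large, 81.4 in the upper and 35.0 in the lower small intestine. Cyb5a, encoding cytochrome b5, was at 127, 536 and 219 FPKM and its reductase Cyb5r3 at 54.4, 310.1 and 67.8 FPKM. The 8 genes of haem synthesis were measured throughout and none was called in any comparison. Of all genes, 11.2% were higher and 11.7% lower between large and upper, and 9.75% and 10.5% between large and lower. Between upper and lower these shares were 3.92% and 2.92%. At such shares few calls would fall among 8 genes in any case. Alas1, which catalyses the rate-limiting step, was at 46.4, 57.0 and 42.0 FPKM.

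**Figure D5:**
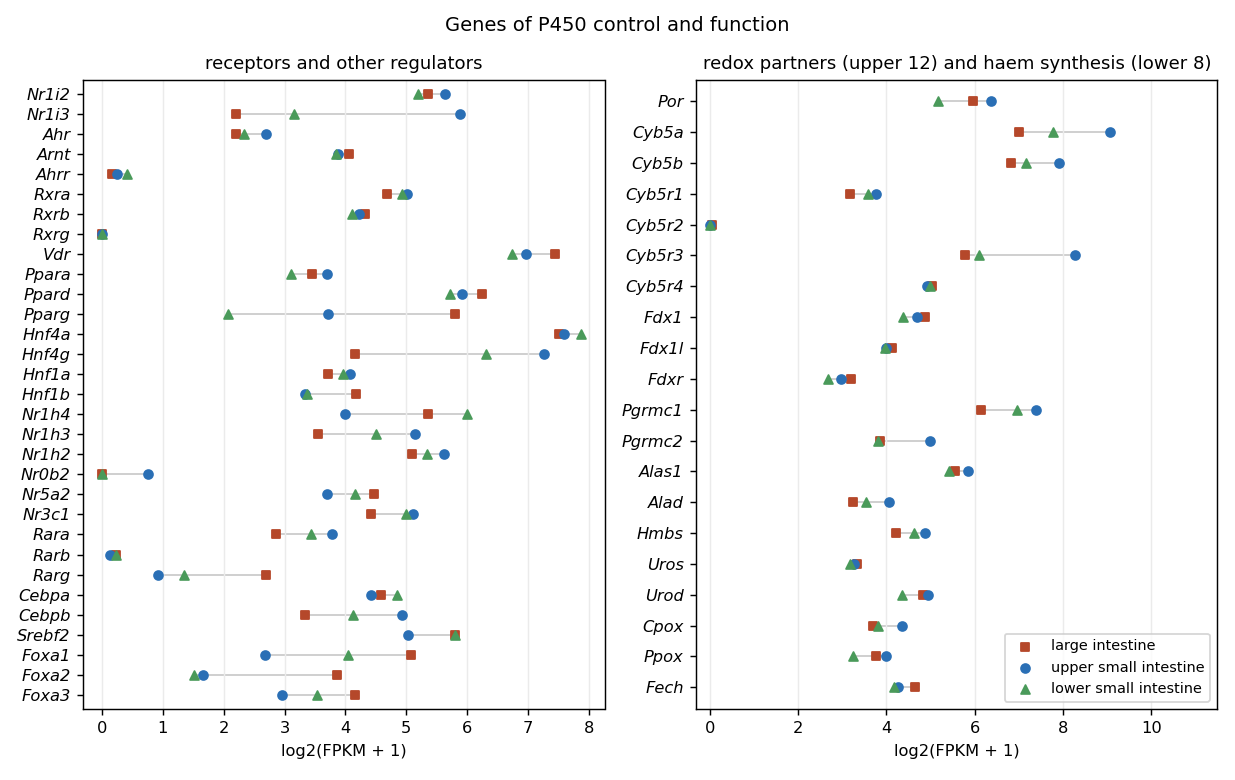
Levels, as log2(FPKM + 1), of the listed regulators (left panel) and of redox partners and haem synthesis genes (right panel), with 1 symbol per library. Nr1i3, Hnf4g, Cyb5a and Cyb5r3 stand highest in the upper small intestine, Pparg and Foxa1 in the large intestine, and the haem synthesis genes lie close together.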

How the data were processed

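Epithelial RNA of 3 intestinal regions was sequenced from libraries made with a TruSeq stranded mRNA kit, per the labels' protocols. The deposited values were taken as FPKM, a unit inferred because the file headers give none and Cufflinks 2.2.1 is the only quantifier among the tools in the submitters' processing notes (with TopHat2 2.0.13, Bowtie2 2.2.3, SAMtools 0.1.19 and mm10). No source used here gives the annotation, filters or strand setting. Upper quartiles of 10.9 FPKM in each library, beside unequal sums of 521651 (large), 693218 (upper) and 646262 (lower), show a common scale whose origin is not given there. If unstranded counting was used, overlapping genes cannot be told apart.

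Differences were taken on log2(FPKM + 1). Genes were measured at 1 FPKM and called at an absolute difference of 1, and a single library for each region allowed no p-value or SD. Low values were used to estimate depth. Among 295, 314 and 318 single-transcript genes of 1500 nt or longer (large, upper, lower), 81.7%, 77.7% and 80.8% had a product of FPKM and length within 0.15 read of a whole multiple of a fitted step. Evenly spread values would give 30%, and the step was first chosen for the highest such share. Reads could therefore be estimated only approximately, and no count test was run. Intervals rest on these estimated reads, are approximate and serve to describe counting error, not as tests between regions. They are at the 95% level, use the shortest transcript with the longest coding sequence, and take reads, which carry no molecular identifiers, as independent.

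Positions come from GENCODE M21 (GRCm38) for 99 members and RefSeq for 2. RefSeq promoter windows matched 78 members. Identities came from global alignments (Biopython 1.88), and calculations used Python 3.11.15 and pandas 2.3.3. Calls and step fits were run on simulated data with counting error alone, steps close to the fitted ones and changes larger than the rule of size. Those data held no replicate spread and no reads shared between relatives. They therefore check the calculations and not the calls in these libraries. Members at 10 FPKM or more were named with all their values, and lower ones when called, when the highest measured of their subfamily or when sterol, steroid, vitamin D or retinoid enzymes. Members, lists and rules were chosen with earlier results of these data known. Of the T cell list, Trac is not in the files. The alternatives tried were 2 pseudocounts, 2 filters, 2 rescalings, another size rule, omission of subfamilies with close relatives (Cyp2c, Cyp2d, Cyp3a, Cyp4a and Cyp4f) and merging of close relatives.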

Additional observations from a re-analysis of the deposited data

How the results depend on the processing

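No paired analysis was possible because each region has 1 library. Merging close relatives was added after the data were seen. Differences of single genes were recomputed under 2 other pseudocounts and 2 rescalings alone, where no called gene changed sign. Of these 428 differences, 396 kept their side of the rule, 16 lost their call and 16 gained one. The rescalings were to equal FPKM sums and to equal upper quartiles, the latter over genes above 0 alone. Cyp51 between large and upper small intestine lay just under the rule (0.9996). It passed the rule with a pseudocount of 0.1 FPKM (1.03), with equal sums (1.40) and with equal upper quartiles (1.09). Cyp2j6 between upper and lower lost its call in both rescalings (0.93 and 0.97) and with a pseudocount of 5 FPKM (0.93). Cyp20a1 (1.15) and Cyp2s1 (1.07) passed the rule between large and upper with equal FPKM sums. Rescaling to the same FPKM sum moved the median of all genes to 0.37, 0.28 and -0.12 in large against upper, large against lower and upper against lower. With equal upper quartiles these medians were 0.09, 0.03 and -0.09.

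Large against upper: the median moved to -0.22 with a pseudocount of 5 FPKM, -0.13 without a filter, -0.15 with equal sums and -0.76 with relatives merged. Higher and lower members numbered 3 and 7 of 16 with the subfamilies of close relatives left out. With relatives merged, 6 of 33 were higher. Of all genes, 11.2% were higher and 11.7% lower. Large against lower: the median moved to 0.25 with a pseudocount of 5 FPKM, 0.0637 without a filter, 0.252 with a filter of 5 FPKM, 0.77 with equal sums, 0.0475 with those subfamilies left out and 0.0195 with relatives merged. Higher members numbered 3 and lower members 3 of 15 without those subfamilies, and 7 were higher with relatives merged. The shares of all genes were 9.75% higher and 10.5% lower. Upper against lower: the median moved to 0.17 without a filter, 1.72 with a filter of 5 FPKM and 0.54 without those subfamilies. Without them, 5 of 14 were higher, against 3.92% of all genes. At a rule of 2, 9 were higher and 0 lower, and with a pseudocount of 5 FPKM 0 were lower. The shares of all genes at that rule and that pseudocount were not computed. Fewer genes enter without the subfamilies and with relatives merged, and low genes enter without a filter. The cause of the other shifts was not tested. Genes below 1 FPKM in both libraries of a pair stand for few reads. On the scale of log2(FPKM + 1) they cannot differ by 1, so the rule could not call them.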

Other observations

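Rows left out by the pseudogene mark included Cyp2d37-ps, which lies on chromosome 15 at 82688750 to 82690058 (GRCm38), between Cyp2d13 and Cyp2d40. It was at 6.36 FPKM in the large intestine, listed at 0 in the upper and at 0.363 in the lower small intestine, the same order of regions as the 5 neighbouring Cyp2d rows. How reads were divided between it and them was not tested. Cyp4f41-ps was at 0.963, 0.138 and 0.557 FPKM (large, upper, lower), Cyp2c53-ps at 0, 0.203 and 0 FPKM, and Cyp4b1-ps2 was listed at 0 in all 3.

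The P450 superfamily also holds Tbxas1, the thromboxane synthase, and Ptgis, the prostacyclin synthase, whose symbols do not have the P450 form. They were at 0.123, 0.284 and 0.285 FPKM and at 0.071, 0.081 and 0.054 FPKM (large, upper, lower). Both genes were named after their values were seen.

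Outside the Cyp2c and Cyp2d subfamilies, a division made after the data were seen, 26 members were measured in the large or upper small intestine, of which 4 had a higher and 12 a lower level in the large intestine, against 11.2% and 11.7% of all genes. In the large intestine 3 of 24 exceeded the lower small intestine and 7 fell short of it, against 9.75% and 10.5%. Between upper and lower, 8 of 23 were higher in the upper and 1 was lower, against 3.92% and 2.92%. The higher counts of the first 2 comparisons lie near the shares of all genes.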
